A study of Mus musculus with 18 samples.

Results

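The genes C1qa, C1qb and C1qc encode the subunits of C1q, and they were followed in 18 libraries of medial prefrontal cortex from C57BL6/J mice. The members are the 3 rows, of 54547 gene rows per library, whose Ensembl identifiers map to these genes in the GENCODE M21 annotation once the version is dropped. Of the libraries, 9 came from mice on chow with PLX5622 at 1200 mg/kg, titled as microglia-depleted, and 9 from mice on a control diet. PLX5622 blocks the kinase CSF1R, whose signal keeps microglia alive. One treatment text stands on all 18 libraries: PLX5622 for 21 days before an every-other-day drinking procedure at 15% that lasted 44 days, and killing 24 hours after the final ethanol session. This text names PLX5622 for the control diet too, so beyond the chow it does not separate what each group received, and both groups carry the ethanol text. All mice were 100 days old by the labels. The RNA came from whole tissue homogenate, and the sequencing was biased toward the 3′ end of transcripts. The labels number the libraries but say nothing of cages, litters or sessions, so p-values measure the spread between these libraries.

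C1q is the recognition protein of the classical complement pathway. It is assembled from A, B and C chains, each with a collagen-like stalk and a globular head, and it works bound to the proteases C1r and C1s, which on activation cleave C4 and C2. In the mouse brain microglia are the main source of C1q, and during development C1q marks synapses that microglia then remove. All of the chains are needed for a stable molecule, and protein was not measured here.

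The genes lie side by side on the minus strand of chromosome 4 in GRCm38 (GENCODE M21). C1qa (ENSMUSG00000036887.5) spans 136895917 to 136898803, C1qc (ENSMUSG00000036896.5) spans 136889804 to 136893065, and C1qb (ENSMUSG00000036905.8) spans 136880129 to 136886187. The gap between C1qa and C1qc is 2851 bases and that between C1qc and C1qb is 3616 bases, and the whole locus covers 18675 bases. Each gene has 3 exons, with 1040 exonic bases in C1qa, 1088 in C1qb and 1931 in C1qc. No other gene model overlaps any of them on either strand, and the nearest protein-coding neighbours are Ephb2 below and Epha8 above. Counts were given per gene, and the exon they fell in is not known.

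Promoter sequence from RefSeq (GRCm38.p6, 250 bases before to 50 after the gene start) was matched for 2 of the 3 members, C1qb and C1qc. It is shown because all of the subunit genes were lower with PLX5622. PU.1, a transcription factor of macrophages and microglia, binds purine-rich sites that include AGGAAGT. That motif was searched on both strands and was chosen after the sequences were seen. Each of these promoters held 1 match, read here as its reverse complement ACTTCCT and printed in capitals in the direction of transcription.
C1qb, chr4:136886235-136886264, minus strand: caggacctgaaACTTCCTgagggcagcagg
C1qc, chr4:136893091-136893120, minus strand: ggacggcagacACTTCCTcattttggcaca
The match began 53 bases before the RefSeq start of C1qb (136886200) and 195 bases before that of C1qc (136892914). RefSeq places both starts elsewhere than the GENCODE spans above, from whose upper ends the matches lie 66 and 44 bases away. Of the 32851 promoter entries of the same length, 9.35% held the motif, so a match is common and describes letters, not binding. Spi1, the gene of PU.1, had 18 counts in all PLX5622 libraries together and 59 in all control libraries, too few to be tested. The part of PU.1 in the C1q values was not tested.

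Library totals ran from 990136 to 1742680 counts with a median of 1384979, and levels are given as CPM, which are read counts scaled to the TMM-normalised size of each library. Mitochondrial genes held 3.90 to 5.24% of counts. Markers of neurons (8 genes), astrocytes (8) and myelinating oligodendrocytes (6) were all present, each list was tested in full, and none of these genes passed the test in either direction. Over all tested genes 0.398% passed. Neuronal markers summed to 7200 ± 198 CPM with PLX5622 and 7170 ± 204 CPM in controls (SD, n = 9 each). Of 9 vascular and meningeal markers 7 were tested and none was called. Markers of red cells and choroid plexus summed to 237 ± 97 CPM with PLX5622 and 173 ± 59 CPM in controls, with overlapping ranges of 48.1 to 399 and 98.5 to 283 CPM. Of that list's 9 genes 3 were tested and none was called. The smallest p was that of Ttr, the transthyretin gene of the choroid plexus, with 15.5 ± 9.8 CPM with PLX5622 and 5.30 ± 3.26 CPM in controls (log2 fold change 1.49 ± 0.44, SE, unadjusted p = 0.0036, edgeR adjusted p = 0.283). The part of these cells in the C1q values was not tested.

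All C1q subunits were lower in the PLX5622 libraries, by about 3.5-fold for C1qa, 3.3-fold for C1qb and 2.6-fold for C1qc. C1qa, the gene of the A chain, ranged from 5.13 through a median of 7.09 to 15.4 CPM with PLX5622, against 18.2 through 27.4 to 45.6 CPM in controls. Every PLX5622 library lay below every control library, with the highest PLX5622 value close under the lowest control value. C1qb, the gene of the B chain, ranged from 15.0 through 19.2 to 34.4 CPM with PLX5622, against 58.1 through 66.1 to 91.1 CPM in controls. For C1qc, the gene of the C chain, the values were 14.0 through 22.3 to 35.0 CPM with PLX5622, against 40.7 through 52.8 to 84.2 CPM in controls. C1qb and C1qc thus did not overlap between the diets either, so all 3 subunits showed a separation found in 22 of 11051 tested genes (0.199%). Of the subunits, C1qa passed the count filter for testing through controls alone, which favours such a separation. The CPM values rest on few reads: C1qa had 7 to 25 counts in a PLX5622 library and 23 to 59 in a control library, C1qb 22 to 56 and 81 to 118, and C1qc 18 to 57 and 57 to 109.

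**Figure D1:**
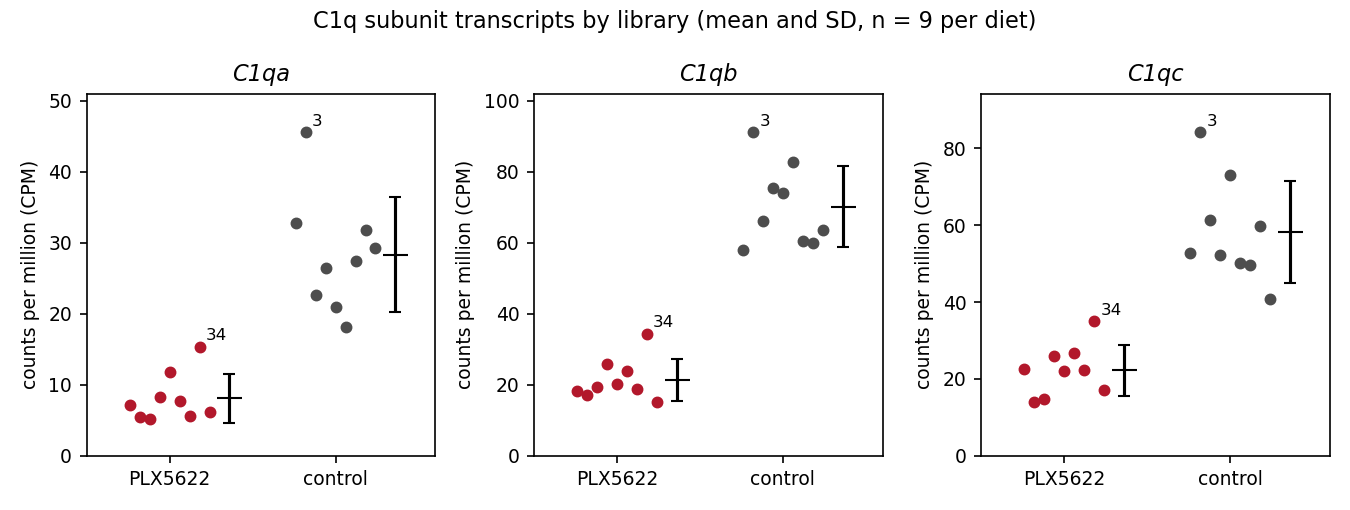
Transcript level of each C1q subunit (CPM, linear axis from 0) in 9 PLX5622 libraries (red) and 9 control libraries (grey), with the mean and SD beside the points. For each subunit all PLX5622 points lie below all control points, and the numbered libraries, PLX5622 34 and control 3, are the highest of their diet.

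In the fit over all genes, the log2 fold change was -1.70 for C1qb (SE 0.11, adjusted p = 5.6e-18), -1.81 for C1qa (SE 0.18, adjusted p = 1.2e-10) and -1.37 for C1qc (SE 0.15, adjusted p = 1.1e-06; edgeR quasi-likelihood test with Benjamini-Hochberg adjustment). All 3 subunits were thus called lower. C1qa passed the count filter through controls alone, and passing in this way favours genes that are lower with PLX5622. By p C1qb, C1qa and C1qc stood 3rd, 10th and 17th of 11051 genes tested. Of those genes 44, or 0.398%, were called, 39 (0.353%) lower and 5 (0.0452%) higher, and the median log2 fold change of all genes was 0.0001. Since the tissue is bulk, fewer microglia and less C1q RNA per cell cannot be told apart.

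C1qc kept the largest part of its control level and C1qa the smallest. Mean CPM with PLX5622 were 8.06 ± 3.43 for C1qa, 21.4 ± 5.9 for C1qb and 22.2 ± 6.6 for C1qc, against 28.3 ± 8.1, 70.2 ± 11.4 and 58.2 ± 13.3 in controls (SD, n = 9 each). C1qa therefore kept 28.4% of its control level, C1qb 30.5% and C1qc 38.2%. On geometric means, inverting the exact permutation test on log2 CPM gave 95% intervals of 19.9 to 38.2% for C1qa, 24.5 to 36.99% for C1qb and 29.0 to 48.8% for C1qc. These intervals overlap, and the difference between the subunits is tested on their ratios below. Single PLX5622 libraries kept 18.1 to 54.2% of the control mean of C1qa, 21.4 to 49.1% of that of C1qb and 24.1 to 60.2% of that of C1qc. Without PLX5622 34 the residual levels were 25.2%, 28.2% and 35.5%.

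Per kilobase of exon, C1qb was the most abundant subunit in both diets. It had 19.7 ± 5.4 CPM per kilobase with PLX5622, against 64.5 ± 10.5 in controls. C1qc had 11.5 ± 3.4 with PLX5622, against 30.1 ± 6.9 in controls, and C1qa had 7.75 ± 3.30 with PLX5622, against 27.2 ± 7.8 in controls (SD, n = 9 each). The SD ranges of C1qc and C1qa met in both diets and those of C1qb and C1qc met with PLX5622, while in controls that of C1qb stood clear. Because the method favours 3′ ends, dividing by exon length may misstate levels between genes, and this order is a description.

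A single library was high for all of the subunits in each diet. PLX5622 34 held 15.4 CPM of C1qa, 34.4 of C1qb and 35.0 of C1qc, the highest of its diet in each. Its summed C1q was 84.8 CPM, while the other PLX5622 libraries held 36.6 to 59.96 CPM. Control 3 held 45.6, 91.1 and 84.2 CPM and a sum of 221 CPM, against 134 to 168 CPM in the other controls. Control 3 also held the most RNA of blood neutrophils and monocytes, with a list of 12 marker genes summing to 191 CPM there and to 2.91 to 19.8 CPM in the other controls. PLX5622 34 was within its diet for that list, at 24.0 CPM in a range of 5.46 to 31.9 CPM. Leaving out both libraries, a choice made after their values were seen, the log2 fold change was -1.91 for C1qa, -1.78 for C1qb and -1.41 for C1qc (SE 0.18, 0.11 and 0.12; edgeR, highest adjusted p = 2.8e-13), so the falls were as large without them.

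Counts of a subunit varied more between libraries of a diet than counting alone gives. The chi-square per degree of freedom, which is near 1 for pure counting error, was 2.20 for C1qa, 2.46 for C1qb and 2.92 for C1qc with PLX5622, against 2.97, 2.56 and 4.00 in controls. Without PLX5622 34 it was 0.865, 0.760 and 1.52, and without control 3 it was 1.38, 1.60 and 2.12. Most of the spread of C1qa and C1qb among PLX5622 libraries therefore sits in that 1 library.

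Proportions between the subunits shifted toward C1qc with PLX5622. C1qc made up 42.9% ± 3.7 of the summed C1q counts with PLX5622 and 36.9% ± 4.1 in controls. For C1qb the shares were 41.8% ± 3.9 with PLX5622 and 45.0% ± 4.8 in controls, and for C1qa 15.3% ± 3.1 and 18.1% ± 4.1 (SD, n = 9 each). C1qb had fewer counts than C1qc in 6 of 9 PLX5622 libraries, the same number in 1 and more in 2. In controls C1qb had more counts than C1qc in 8 libraries and the same number in 1, and fewer in 0.

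The ratio of C1qb to C1qc, taken per library with 0.5 added to each count, ran from 0.818 through a median of 0.925 to 1.30 with PLX5622, against 1.00 through 1.101 to 1.65 in controls. The groups overlapped. The mean log2 ratio was -0.04 ± 0.23 with PLX5622 and 0.28 ± 0.28 in controls (SD, n = 9 each), a difference of -0.32 with a 95% interval of -0.58 to -0.07 (two-sided exact permutation test, p = 0.016, adjusted 0.048 over 3 ratios). C1qa to C1qc ran from 0.262 through 0.362 to 0.547 with PLX5622, against 0.292 through 0.534 to 0.722 in controls, also overlapping. The difference in mean log2 ratio was -0.41, with an interval of -0.79 to -0.04 (exact permutation p = 0.032, adjusted 0.048). C1qa to C1qb ran from 0.279 through 0.333 to 0.592 with PLX5622, against 0.223 through 0.455 to 0.566 in controls. Its difference was -0.09, with an interval of -0.48 to 0.31 (exact permutation p = 0.629), which spans 0.715 to 1.24 as a fold.

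Both ratio calls stand close to the threshold, and they share C1qc and its counts, so they are not independent results. Leaving out 1 library ended the call of C1qb to C1qc for 9 of the 18 libraries (PLX5622 25, 28, 31, 32 and 35, control 2, 5, 9 and 11), with adjusted p of at most 0.094 and differences of -0.38 to -0.27 over all 18. It ended that of C1qa to C1qc for 13 of the 18 (the same 9 with PLX5622 26 and 27 and control 3 and 10), with differences of -0.51 to -0.34. The unadjusted exact permutation p of C1qb to C1qc stayed at or below 0.033 in all 18 fits, and that of C1qa to C1qc reached 0.062. With both high libraries left out the adjusted p was 0.068 for each, and with 1 added to each count that of C1qa to C1qc was 0.063. In 1 random thinning of every library to the smallest total the differences were larger, -0.56 for C1qb to C1qc and -0.72 for C1qa to C1qc (adjusted exact permutation p = 0.002 and 0.030), so the size of the shift is not well fixed at this depth.

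**Figure D2:**
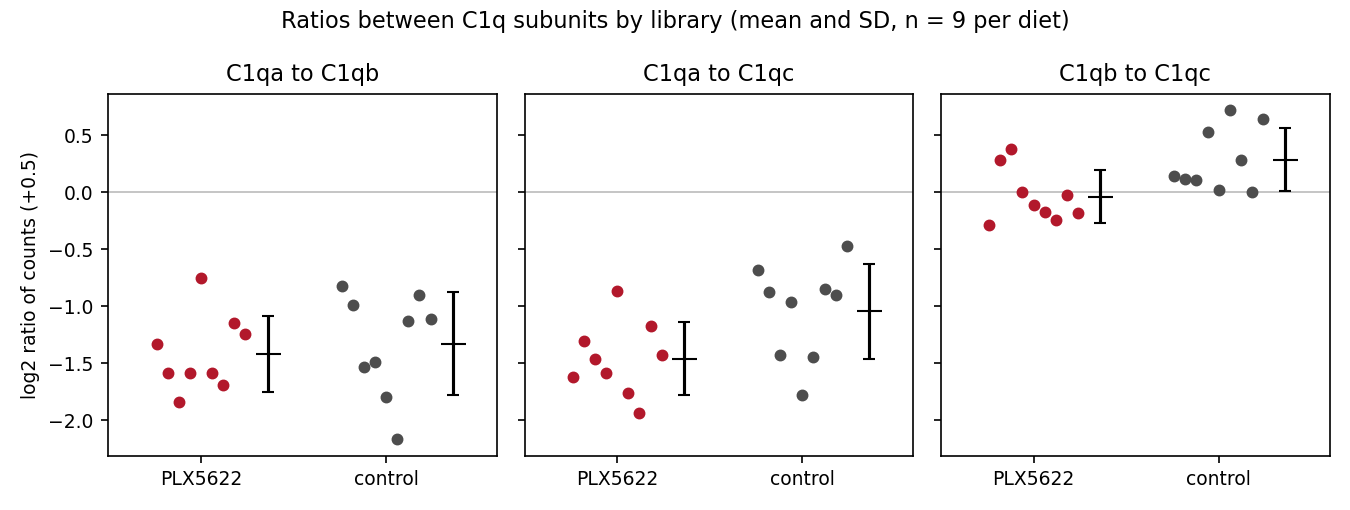
Log2 ratio of counts between subunits in each library, with 0.5 added to each count, for 9 PLX5622 libraries (red) and 9 control libraries (grey), with mean and SD. The groups overlap in each ratio, and the mean of C1qb to C1qc is -0.04 with PLX5622 and 0.28 in controls.

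The residual level of summed C1q lay beside that of a sum of other microglial genes, which differed widely among themselves. The list of 25 microglial genes without C1q summed to 184 ± 32 CPM with PLX5622 and 551 ± 58 CPM in controls (SD, n = 9 each), a residual of 33.3%, beside 33.01% for the summed C1q subunits. The sums were not tested. C1q counts equalled 28.0% ± 4.9 of the counts of that list with PLX5622 and 28.3% ± 1.8 in controls, ranging from 19.9 to 36.3% and from 25.9 to 31.9%. The highest of these values was again PLX5622 34. Of the 25 genes 16 passed the count filter, 15 were called lower and 1, the Fc receptor gene Fcgr3, was not (log2 fold change -0.83 ± 0.22, SE, edgeR adjusted p = 0.097). The median log2 fold change of the 16 was -1.68. A gene can pass the filter through 1 diet alone. Fcrls, with 18 counts in all PLX5622 libraries and 197 in all controls, passed through controls. Passing in this way favours genes that are lower with PLX5622, so the share called describes these 16 only. Trem2, Itgam and Irf8 were listed at 0 in all libraries. Over 99% of the span of Itgam and of Irf8 is overlapped by another gene model on the same strand, so their level cannot be read from these counts. No such overlap was found for Trem2. The cause of its 0 is not known, so that value is not read as absence.

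Residual levels of the 16 tested microglial genes ran from 8.55% for Fcrls, an Fc receptor-like gene of microglia, to 54.2% for Fcgr3, with a median of 31.5%. C1qa had 6 of the 16 below it and 10 above, C1qb 8 below and 8 above, and C1qc 11 below and 5 above. These places are among genes that passed the filter, which controls alone can satisfy. The genes nearest to the mean of the subunits, 32.4%, were Vsir, an immune checkpoint gene, at 33.4%, Csf1r, the receptor that PLX5622 blocks, at 29.6%, Laptm5, a lysosomal membrane protein gene, at 29.4%, Olfml3 at 35.9% and the lectin gene Siglech at 27.2%. Csf1r had 19.3 ± 4.1 CPM with PLX5622 and 65.2 ± 15.3 CPM in controls. Each of these 5 was itself called lower (edgeR adjusted p of at most 4.8e-06).

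For none of the subunits did the ratio to the microglial list pass the test with all libraries. The log2 ratio to the list sum differed by -0.22 for C1qa (95% interval -0.59 to 0.16), by -0.12 for C1qb (-0.35 to 0.10) and by 0.20 for C1qc (-0.06 to 0.45), with an adjusted exact permutation p of 0.253 for each. The intervals leave room for a shift of C1qc of up to 1.36-fold upward against the list. Without Csf1r in the list, the difference was -0.15 for C1qb and 0.18 for C1qc (adjusted exact permutation p = 0.193 for each). Without Ctss and 1 gene not reported here, the difference of C1qc was 0.36 and passed (adjusted exact permutation p = 0.044), and that of C1qb was 0.04 (adjusted p = 0.774). Without PLX5622 26 the difference of C1qc was 0.28 (adjusted p = 0.041).

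**Figure D3:**
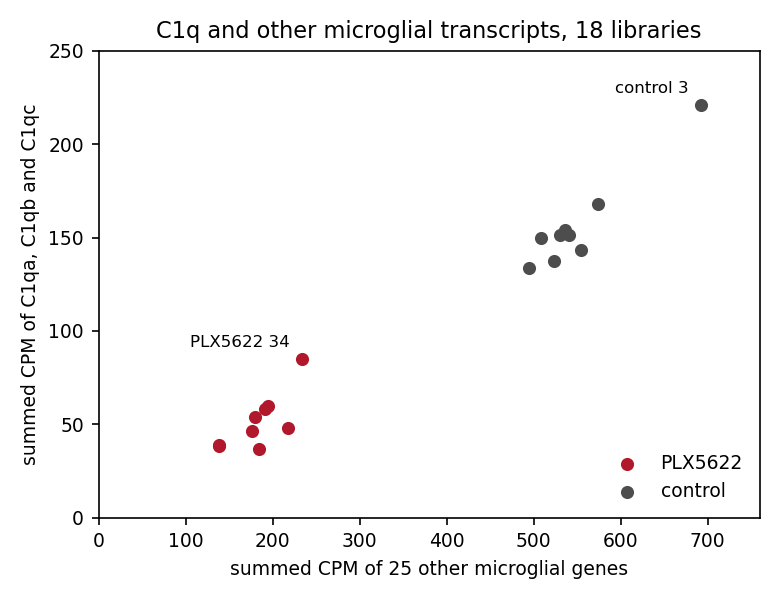
Summed CPM of C1qa, C1qb and C1qc against the summed CPM of 25 other microglial genes, 1 point per library, PLX5622 in red and control in grey, both axes linear from 0. The diets form separate clouds, and PLX5622 34 (84.8 CPM of C1q) and control 3 (221 CPM) top their diets on both axes.

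Within a diet, relations between the subunits did not pass after adjustment over the 18 relations computed. Among PLX5622 libraries, C1qb and C1qc gave a Pearson's r of 0.84 (exact permutation p = 0.0042, adjusted 0.051) while Spearman's rho was 0.75 (adjusted 0.153), with r 0.64 without the 2 libraries farthest from the median. C1qa gave r of 0.77 with C1qb (exact p = 0.017, adjusted 0.076) and rho of 0.70 (adjusted 0.181), with r 0.68 without the 2 farthest. With C1qc it gave r of 0.79 (exact p = 0.011, adjusted 0.066) and rho of 0.77 (adjusted 0.153), with r 0.84 without the 2 farthest. Among controls, C1qa and C1qb gave r of -0.01 (exact permutation p = 0.978) and rho of -0.33 (exact p = 0.385), with r -0.74 without control 3 and 8. C1qa and C1qc gave r of 0.30 (exact p = 0.429) and rho of 0.17 (exact p = 0.678), with r -0.60 without those 2 libraries. C1qb and C1qc gave r of 0.52 (exact p = 0.154) and rho of 0.30 (exact p = 0.437), with r 0.37 without them. For C1qa, r among controls thus depends on control 3 and 8.

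The microglial list sum gave r of 0.64 with C1qa, 0.67 with C1qb and 0.75 with C1qc among PLX5622 libraries, against 0.55, 0.68 and 0.81 among controls (lowest adjusted exact permutation p = 0.051, rho 0.15 to 0.75). Without the 2 farthest libraries, PLX5622 27 and 35 or control 3 and 11, r was 0.56, 0.63 and 0.61 with PLX5622 and -0.10, 0.24 and 0.37 in controls. In controls these relations therefore rest on those libraries. No relation with the animal number of the labels passed: r ran from 0.22 to 0.39 with PLX5622 and from -0.50 to -0.28 in controls, the adjusted exact permutation p was at least 0.280, and rho ran from 0.17 to 0.33 and from -0.60 to -0.20. In a fit with the position of that number within its diet, the subunits moved by -0.02 to -0.004 per position (log2, edgeR adjusted p of at least 0.899).

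Genes whose pattern over the 18 libraries was most like the mean log2 CPM of the subunits were mostly on the microglial list, which holds 7 of the first 8 but not Inpp5d. Of those 7, 1 is not reported here. Among 9160 tested genes that averaged 20 counts or more, 7 of the 8 highest Pearson's r belonged to Laptm5 (0.95), Csf1r (0.95), the protease gene Ctss (0.92), the fractalkine receptor gene Cx3cr1 (0.92), Ly86 (0.90), the phosphatase gene Inpp5d (0.89) and the purinergic receptor gene P2ry12 (0.88). All of these share the diet difference with C1q, and r over both diets includes it. With each diet's mean subtracted, r was 0.69 for Ctss, 0.58 for Csf1r and 0.56 for Laptm5, and -0.04 for Cx3cr1 and -0.10 for P2ry12. The 5 genes highest on that measure were Ppfia4 (0.82), Gltp (0.76), Gng11 (0.74), Dusp6 (0.71) and Dock1 (0.70), and none of them was called between the diets (edgeR adjusted p of at least 0.662). For scale, a subunit against the mean of the other two, with diet means subtracted, gave 0.60 for C1qa, 0.67 for C1qb and 0.75 for C1qc. These values come from counts of this depth over 18 libraries and are descriptive.

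No other complement gene that could be tested was called. Over all tested genes only 0.398% were called, so no call among so few genes is near that share. The same holds for the regulator, receptor and C1q-domain lists below, and a lack of change was not tested. Among the partners of C1q, no gene of the list of C1r, C1s, C2 and C4 genes had enough counts to be tested. C1ra, a protease gene of the C1 complex, had 12 counts in all PLX5622 libraries and 13 in all controls, and C1s1, the gene of its partner protease, had 9 and 11. C2 had 12 and 10 counts, and other gene models cover 54.5% of its length, so its count is uncertain. C4b, the gene of the next component cleaved, had 65 counts with PLX5622 and 57 in controls, or 5.18 ± 1.60 and 4.78 ± 1.20 CPM (SD, n = 9 each). The list summed to 7.78 ± 1.94 CPM with PLX5622 and 7.76 ± 2.70 CPM in controls, 100.2% of the control level. C3, on which the pathways converge, had 7 and 5 counts, and C3 with the terminal components, 8 genes, summed to 4.82 ± 2.74 and 4.72 ± 1.19 CPM, with C7 the most abundant at 34 and 38 counts.

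Complement regulators were not called in either direction. Of 18 genes 14 were tested, with a median log2 fold change of -0.02. Csmd3, a brain gene with complement-like domains, was at -0.07 ± 0.05 (log2 fold change, SE) and Cr1l, the gene of a membrane regulator of rodents, at -0.09 ± 0.11. Serping1, which encodes the inhibitor of C1r and C1s, was at 0.05 ± 0.20, with 9.92 ± 1.83 CPM in PLX5622 libraries and 9.58 ± 3.34 CPM in controls. Clu, the gene of clusterin, was at -0.01 ± 0.05. Of 9 genes of the alternative and lectin pathways the 2 tested were not called, with Masp1, a lectin-pathway protease gene, at 0.11 ± 0.16 and the scavenger collectin gene Colec12 at -0.11 ± 0.15.

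Among 14 receptor genes 6 were tested and none was called. Lair1, an inhibitory receptor gene whose product binds collagen and C1q, had the smallest p. Its levels were 8.01 ± 1.87 CPM with PLX5622 and 12.7 ± 1.8 CPM in controls, at -0.66 ± 0.18 (log2, SE, unadjusted p = 0.00048, edgeR adjusted p = 0.096). They ranged from 5.45 to 10.1 and from 10.3 to 15.5 CPM and did not overlap, as in 0.199% of tested genes. Like C1qa, Lair1 passed the count filter through controls alone. Megf10, an engulfment receptor gene of astrocytes, was at 0.24 ± 0.13 (adjusted p = 0.788), and C1qbp, which encodes a protein named for C1q binding and found mainly in mitochondria, at 0.10 ± 0.08 (adjusted p = 0.887). Receptors of complement fragments on myeloid cells were too low to be tested, with 24 counts in PLX5622 libraries and 35 in controls for C3ar1 and 4 and 10 for C5ar1.

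Other genes whose proteins carry a C1q-like globular head, many of them neuronal, gave no call. Of 25 genes 5 were tested, with a median log2 fold change of -0.09. C1ql3, a synaptic organiser gene, had 239 ± 29 CPM with PLX5622 and 253 ± 42 CPM in controls (log2 fold change -0.09 ± 0.10, SE, edgeR adjusted p = 0.947). Cbln2, a cerebellin gene, had 69.8 ± 13.7 and 63.7 ± 7.3 CPM (0.15 ± 0.09, adjusted p = 0.825), and Caprin2 was at -0.21 ± 0.17 (adjusted p = 0.891). The sum of the whole family list held 97.4% of its control level, beside 33.01% for the C1q subunits. Most of that sum came from C1ql3 and Cbln2, and 5 of the 25 genes were at 0 in all libraries.

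**Figure D4:**
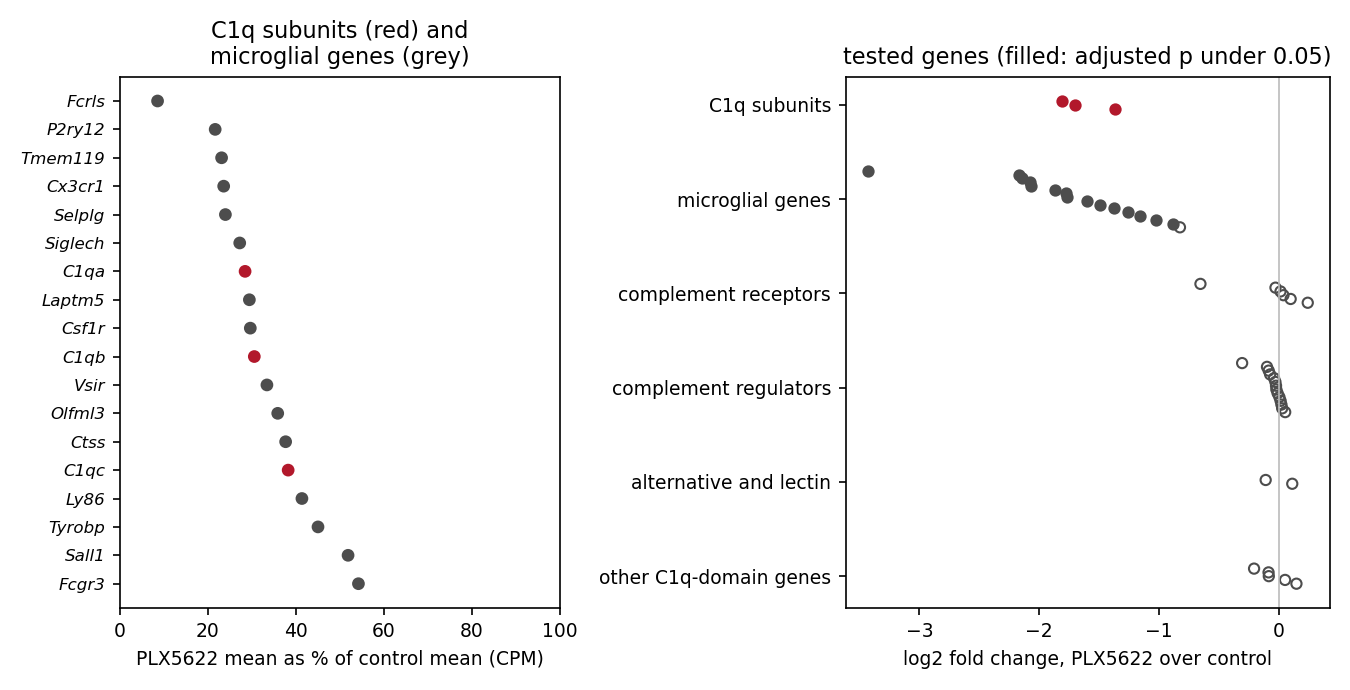
Left, PLX5622 mean as a percentage of the control mean for the C1q subunits (red) and 15 of the 16 tested microglial genes (grey), from Fcrls at 8.55% to Fcgr3 at 54.2% (1 gene is not reported here). Right, log2 fold change of tested genes by list, filled where the edgeR adjusted p was under 0.05. C1q subunits and all 16 tested microglial genes lie at the left. The subunits and 15 of these 16 are filled, Fcgr3 is not, and no gene of the other lists is filled.

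Macrophages at the borders of the brain also make C1q. None of the 12 listed marker genes had enough counts to be tested. They summed to 6.99 ± 3.42 CPM with PLX5622, ranging from 2.73 to 11.4, and to 29.3 ± 4.6 CPM in controls, ranging from 25.0 to 37.1 (SD, n = 9 each), which is 23.9% of the control level and rests on 85 and 353 counts. The ranges of the sum did not overlap. Stab1, F13a1 and Mrc1 held most of the counts, with 31 and 109, 16 and 81, and 7 and 65. Lyve1 had 9 and 13 counts and Clec10a 8 and 9, and Siglec1 was at 0 in all libraries. The part of these cells in the fall of C1q was not tested. Markers of blood neutrophils and monocytes summed to 17.0 ± 10.0 CPM with PLX5622 and 29.7 ± 60.8 CPM in controls, and to 9.54 ± 7.13 CPM in controls without control 3 (n = 8), which is below the PLX5622 mean. S100a8 and S100a9 led that list, and Mpo had 0 counts with PLX5622 and 1 in controls.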

How the data were processed

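Each library has 1 deposited file of raw read counts by Ensembl gene, without header or summary rows. HTSeq 0.11.0 and Bowtie2 2.3.4.3 are among the tools, and GRCm38.p6 and mm10 the builds, in the submitters' processing notes. How strand and features were counted, and from which annotation release, is not given in the sources used here. Identifiers were matched to GENCODE M21 without version (53620 of 54547, the rest holding 0.047% of counts).

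Genes were tested on the counts with edgeR 4.0.16 in R 4.3.3 (filterByExpr with a minimum count of 10 and a minimum total of 15, TMM, robust quasi-likelihood fit, Benjamini-Hochberg adjustment, threshold 0.05), without covariates. CPM use TMM library sizes. Ratios were compared over all 48620 assignments of libraries to diets, for which the smallest p is 4.1e-05, and correlations over all 362880 orders, with log2 CPM computed without a pseudocount. Likeness used log2 CPM with a prior count of 2. The smallest chi-square per degree of freedom between libraries of a diet was 1.13 over genes with at least 20 counts, and no library was treated as a duplicate. The fit and the permutation tests were tested on simulated data. In the simulation of the fit, 70% of 50 genes changed 1.5-fold were recovered, and 98 to 100% of those changed 2-fold to 4-fold. Of its 196 calls 12 were false.

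Members, lists, tests and the rule for named genes were chosen with earlier results of these data known. The rule names the subunits, called complement and C1q-domain genes with the 3 smallest p of each list, the 5 microglial genes nearest in residual level, and the genes most alike. Some genes that it names are not reported here. Genes too low to test, Serping1, Clu, the markers beside C1q and the promoter motif were chosen after values were seen. Alternatives were DESeq2 1.42.0, limma-voom (limma 3.58.1), other scalings and filters, thinning, the animal number, 1 surrogate variable (sva 3.50.0), other pseudocounts and microglial lists, and leaving out each library.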

Additional observations from a re-analysis of the deposited data

Results flagged for a closer look

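Summed C1q in PLX5622 34 was 84.8 CPM, and its gap to the next library, at 59.96 CPM, was 0.516 of the range of its diet, past the 95% critical value of Dixon's test for 9 samples. Control 3, at 221 CPM, stood apart in the same way from the next control at 168 CPM (0.608). The summed microglial list was also apart in control 3, at 693 CPM beside 574 CPM (0.600). With 22 groups examined, chance flags about 1 in 20. Without both libraries, the residual levels were 27.3% for C1qa, 29.3% for C1qb and 37.6% for C1qc.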

How the results depend on the processing

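The log2 fold changes of C1qa, C1qb and C1qc kept their direction and call under every alternative that gave a value, at -1.91 to -1.77, -1.78 to -1.70 and -1.41 to -1.23 over the settings and at -2.01 to -1.70, -1.84 to -1.65 and -1.50 to -1.29 without 1 library. C1qa was not tested at a mean of at least 50 counts, because it fell under that filter. Residual levels without 1 library ran from 25.2 to 30.8%, 28.2 to 31.7% and 35.5 to 40.5%, and with medians they reached 25.9% for C1qa and 42.2% for C1qc. The difference of C1qa to C1qc lost its call with a pseudocount of 1 (-0.38) and, with C1qb to C1qc, without both high libraries (-0.43 and -0.35), and without 1 library they ran from -0.51 to -0.34 and from -0.38 to -0.27. The cause was not tested. Thinning to the smallest library moved them to -0.72 and -0.56. Against the microglial list without Csf1r, C1qb stood at -0.15 and C1qc at 0.18, while without Ctss and 1 gene not reported here C1qb turned to 0.042 and C1qc passed at 0.36, and without 1 library C1qc ran from 0.16 to 0.28. Genes called lower, 39, were 65 with DESeq2, 92 without a count filter and 8 at a mean of at least 50 counts. Genes called higher, 5, were 20 without a filter, 0 at a mean of at least 50, 17 with the animal number, 11 with a surrogate variable, 1 without both high libraries and 2 to 13 without 1 library. At library size only, 2 relations within a diet passed, against 0. Over the settings, the median log2 fold change of all genes was at most 0.012 in absolute size. No paired analysis was possible because the replicate numbers of the diets do not overlap. Depth limits C1qa most, with as few as 7 counts in a library.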
